A study of Homo sapiens with 6 samples.

Results

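The 48 genes described here encode the machinery that licenses replication origins and copies DNA: the origin recognition complex (ORC), the helicase loaders, the MCM helicase, the replicative polymerases, the sliding clamp and its loader, the single-strand binding protein RPA and the factors that steady a fork. They were listed by gene name from the known roles of their proteins. All 48 were among the 33981 genes of the count table, and all 48 were among the 19182 genes that passed the low-count filter. The samples were THP-1 cells, an established human line from a monocytic acute myeloid leukemia (AML), transduced with a lentivirus carrying either a scrambled short hairpin RNA (shRNA; 3 samples) or an shRNA against NFIC (3 samples). NFIC encodes the transcription factor nuclear factor I-C. Cells of both groups were sorted for GFP, which the vector carries, 4 days after transduction and processed for bulk mRNA sequencing. The control samples are labelled scrambled shRNA, and the study's legends for these data name it shScr and the NFIC hairpin sh494, whereas its methods call the control vector GFP only. The data come from 1 cell line and 1 NFIC hairpin, and nothing says that the replicates came from separate cultures, so that p-values measure only the spread between these samples, which may be technical.

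DNA is copied once in each cell cycle. In late mitosis and G1 the ORC marks origins, CDC6 and CDT1 load the MCM2-7 helicase ring onto them, and geminin (GMNN) later blocks CDT1 so that no origin is licensed again. In S phase the DBF4-dependent kinase CDC7 and the cyclin-dependent kinases turn the loaded ring into a working helicase together with CDC45 and the GINS complex. DNA polymerase alpha with primase then makes the primers, polymerase epsilon extends the leading strand, and polymerase delta, held on DNA by the PCNA clamp, extends the lagging strand. Many of these genes are textbook targets of the E2F transcription factors, whose activity rises at the entry to S phase. In bulk RNA, fewer cells in S phase and less RNA of a gene per cell cannot be told apart.

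NFIC itself was measured at 911, 1019 and 904 counts in the scrambled samples and at 399, 518 and 493 counts in the NFIC KD samples. Normalised to counts per 1000000 counts of its library (CPM), it went from 41.9 ± 0.445 (SD, n = 3) to 21.0 ± 1.52 (SD, n = 3), so that 50.1% of the scrambled level was left (log2 fold change -0.99, SE 0.072, edgeR adjusted p = 3.73e-09). Library totals were 20369543 to 24809720 counts, the replication genes had 144 to 6208 counts in each library, and 3 counts corresponded to 0.121 to 0.147 CPM. The 13 monocytic line markers, CD33, LYZ, CSF1R and CD14 among them, were all detected and summed to 2669 to 2838 CPM in the scrambled and 2626 to 2735 CPM in the NFIC KD samples. The similar sums do not mean unchanged markers. At an edgeR adjusted p under 0.05, 5 were higher and 6 lower, or 84.6%, against 59.9% of all tested genes. Their log2 fold changes ran from -1.01 to 0.99. Lymphoid markers summed to 12.7 to 13.1 against 6.89 to 8.15 CPM, erythroid markers to at most 0.853 CPM, and epithelial and packaging-cell markers to 41.1 to 51.5 against 23.9 to 30.3 CPM, most of it LIN28B. The part of these markers in the results was not tested. Scrambled replicate 2 had the highest CPM of its group for 44 of the 48 replication genes, against 36.6% of all tested genes. NFIC KD replicate 3 was highest of its group for 42 of 48, against 38.3% of all tested genes. Replication genes were therefore also counted without these libraries. Exons of 23 of the 48 genes share bases with another gene of the count table, 21 of them with a gene that held over 10% as many counts. How reads there were counted is not given in the sources used here, and only some of these overlaps are named below.

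The replication genes did not move as 1 block: PCNA and the polymerase delta subunits POLD1 and POLD2 fell, while CDC6, POLE, TIMELESS, RPA1, RPA2 and GMNN rose, and most of the MCM ring did not pass the test. Of the 48 genes, 24 (50%) passed an adjusted p of 0.05 in edgeR's quasi-likelihood test, where 59.9% of all tested genes did. In all, 19 were higher in NFIC KD cells, against 29.6% of all tested genes called higher, and 5 were lower, against 30.3% called lower. These shares of all tested genes also stand beside each count of called subunits given below for a complex. The median log2 fold change of the 48 genes was 0.19, beside -0.01 over all tested genes. The groups did not overlap for 19 of the 48 genes, 14 higher and 5 lower, where 65.2% of all tested genes did not overlap. The changes were mostly small, since 11 of the 48 genes moved by over 0.5 on the log2 scale, against 37.5% of all genes, and 1 gene, PCNA, by over 1. The libraries also varied more for these genes than for most: the median coefficient of variation was 12.1% in the scrambled and 10.6% in the NFIC KD samples, against 7.3% and 8.18% over all tested genes. Summed over the 48 genes, the level was 2248, 2826 and 2287 CPM in the scrambled and 2651, 2572 and 3093 CPM in the NFIC KD samples, so that the groups overlapped.

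**Figure D1:**
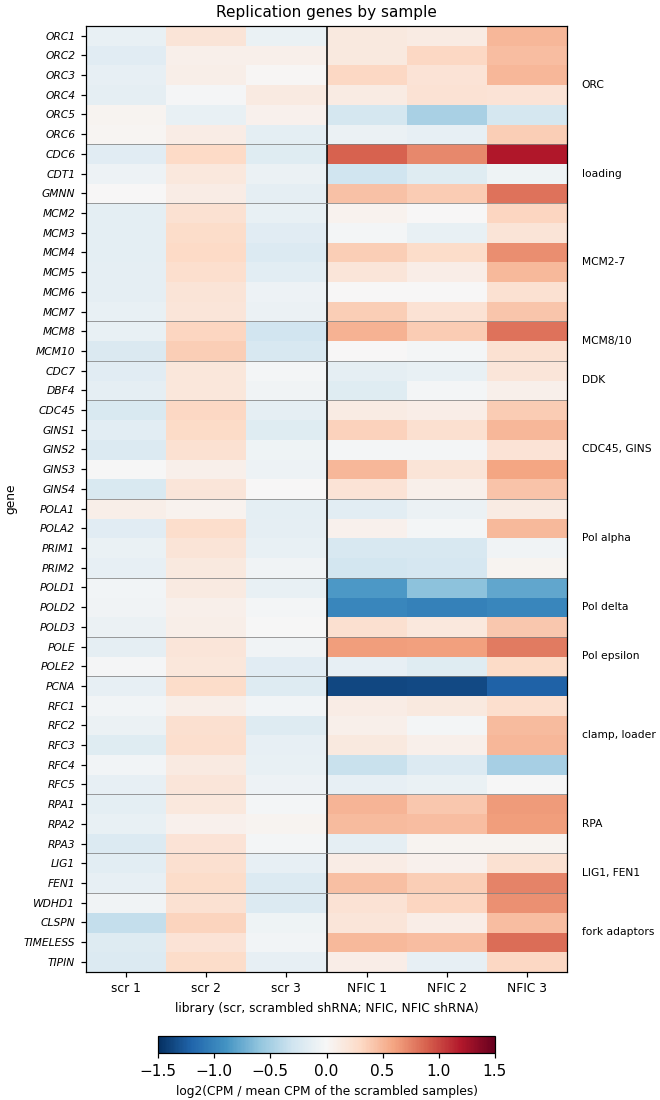
Level of each of the 48 replication genes in each of the 6 libraries, as the log2 of its CPM over the mean CPM of the 3 scrambled samples (red above, blue below), with genes in rows grouped by role and libraries in columns. PCNA, POLD2 and POLD1 are blue in all 3 NFIC KD libraries, CDC6 is the deepest red, and the scrambled replicate 2 and NFIC KD replicate 3 columns are redder than their neighbours across nearly all genes.

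Leaving out 1 library moved the count of called genes. Scrambled replicate 2 was highest of its group for 44 of the 48 genes, and NFIC KD replicate 3 for 42. Leaving out that scrambled library therefore raises most of these fold changes, and leaving out that NFIC KD library lowers most. The direction of such shifts, here and gene by gene below, follows from the choice of library. Without scrambled replicate 2, 34 genes (70.8%) were called, 29 of them higher and 5 lower, where 56% of all genes tested in that fit were called. Without NFIC KD replicate 3, 22 (45.8%) were called, 14 higher and 8 lower, against 55.7% of all genes. The share of replication genes called was thus above that of all genes in some fits and below it in others. With both libraries left out, an alternative chosen after the data were seen, 32 of 48 (66.7%) were called, 26 higher and 6 lower, where 57.1% of all genes tested were called. Under upper-quartile scaling the split was 15 higher and 7 lower in place of 19 and 5. Over all genes that fit called 25.8% higher and 33.9% lower, in place of 29.6% and 30.3%. Blocking on the numbers in the sample titles, which give the 2 libraries that stood apart the same number (C3 and N3), called 35 (72.9%), 28 higher and 7 lower, against 63.1% of all genes. In all, 17 of the 24 called genes, 12 higher and 5 lower, kept their call in each of the 16 alternatives run. The 7 that lost it in at least 1 alternative were ORC1, ORC4, MCM4, MCM8, GINS1, RFC1 and WDHD1. All 7 lost it at an adjusted p of 0.01. Upper-quartile scaling lost ORC1, ORC4, MCM4 and RFC1, DESeq2 lost ORC4 and MCM4, and the fit with no filter lost MCM4. Requiring at least 10 counts in every sample lost ORC1 and ORC4, and the replicate block lost ORC1. Most calls lost or gained gene by gene below are listed only for fits with libraries left out.

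**Figure D2:**
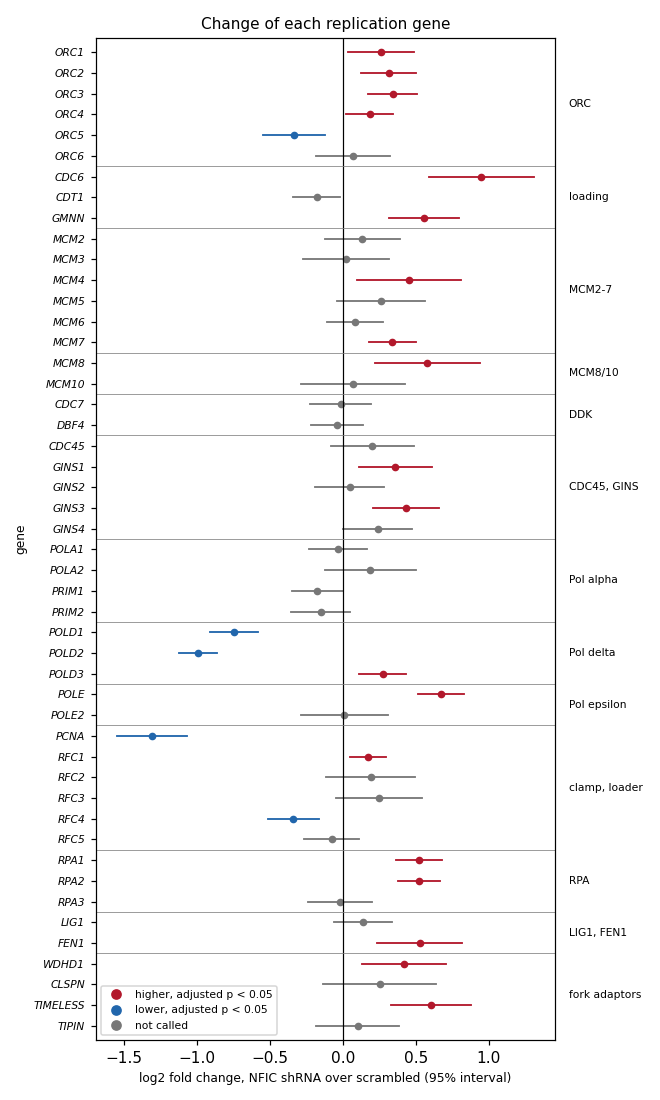
Log2 fold change of each of the 48 genes, NFIC KD over scrambled, with its 95% interval from the edgeR fit over 6 libraries; red points were called higher, blue points lower, and grey points were not called at an adjusted p of 0.05. The blue points are ORC5, POLD1, POLD2, PCNA and RFC4, the lowest is PCNA at -1.31, and the highest is CDC6 at 0.95.

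The sharpest fall was in PCNA, the ring-shaped clamp that tethers polymerases and many other replication proteins to DNA. PCNA was measured at 88.0, 116 and 84.2 CPM in the scrambled samples and at 37.3, 37.7 and 41.3 CPM in the NFIC KD samples. Every NFIC KD library was well below every scrambled library. The log2 fold change was -1.31 (SE 0.11, edgeR adjusted p = 1.04e-06), which is 0.403 times the scrambled level, and 4.61% of all tested genes had a lower log2 fold change. PCNA lies at chr20:5114953-5126626 on the minus strand (GRCh38) and shares no exon bases with another gene of the count table. Per gene length it was the highest of the 48 genes in scrambled cells, at 67.7 ± 12.3 FPKM (SD, n = 3), and it was at 27.6 ± 1.78 FPKM (SD, n = 3) in NFIC KD cells, under the means of MCM2, MCM3, MCM6, MCM7, RPA2 and FEN1.

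The clamp loader RFC, the complex that opens and places PCNA on DNA, had 1 of 5 subunits higher, 1 lower and 3 not called. RFC1, its large subunit, was at 79.9, 87.2 and 80.0 CPM in the scrambled and 89.1, 91.2 and 98.5 CPM in the NFIC KD samples, and rose by a log2 of 0.17 (edgeR adjusted p = 0.0168). That call was lost without scrambled replicate 1 (0.14) or 3 (0.15). RFC4 was at 40.7, 46.2 and 38.9 against 33.3, 36.4 and 29.8 CPM and fell by 0.34 on the log2 scale (edgeR adjusted p = 0.00189), with groups that did not overlap. Exons of RFC4 and the strongly expressed EIF4A2 on the opposite strand share 18 bases. RFC2 (log2 fold change 0.19), RFC3 (0.25) and RFC5 (-0.08) did not pass the test, although RFC2 (0.33) and RFC3 (0.39) did without scrambled replicate 2.

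Polymerase delta, the enzyme that works with PCNA, had 2 of its 3 listed subunits lower and 1 higher. POLD2, the accessory subunit that joins the catalytic subunit to the rest, was at 66.1, 72.5 and 67.6 CPM in the scrambled samples and 34.8, 33.9 and 34.8 CPM in the NFIC KD samples. The 3 NFIC KD libraries had an SD of 0.492 CPM, and each lay far below the lowest scrambled library. The log2 fold change was -0.996 (SE 0.0615, edgeR adjusted p = 5.08e-10), which is 0.501 times the scrambled level. POLD1, the catalytic subunit, was at 49.5, 55.9 and 47.3 CPM against 28.1, 33.3 and 29.6 CPM, again without overlap. It fell by 0.75 on the log2 scale (SE 0.079, edgeR adjusted p = 3.56e-07). POLD1 (chr19:50384204-50418018, plus strand, GRCh38) shares 426 exon bases with a gene model on the same strand, ENSG00000142539, whose count was 22.2% of that of POLD1, so reads there are uncertain. POLD2 (chr7:44114631-44124358, minus strand) shares none with another gene of the count table. POLD3, a subunit that contacts PCNA, went the other way, from 30.3, 34.2 and 32.2 CPM to 38.2, 36.0 and 42.7 CPM (log2 fold change 0.27, edgeR adjusted p = 0.00531). POLD4, the smallest subunit and not among the 48, is added to complete the complex and did not pass the test (log2 fold change 0.16, edgeR adjusted p = 0.144).

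Polymerase epsilon moved opposite to polymerase delta in its catalytic subunit. POLE was at 64.8, 80.7 and 68.8 CPM in the scrambled samples and at 110.2, 109.6 and 122 CPM in the NFIC KD samples. All 3 NFIC KD libraries were above the highest scrambled library. The log2 fold change was 0.67 (SE 0.074, edgeR adjusted p = 8.91e-07). POLE lies at chr12:132623753-132687376 on the minus strand (GRCh38). POLE2, its accessory subunit and the least abundant of the 48 genes in CPM, was at 7.49, 8.57 and 6.77 against 6.99, 6.72 and 9.32 CPM and did not pass the test (log2 fold change 0.01, 95% interval -0.29 to 0.31). Of the histone-fold subunits, named to complete the complex, POLE3 was higher (log2 fold change 0.39, edgeR adjusted p = 4.02e-05) and POLE4 did not pass (0.09, edgeR adjusted p = 0.43).

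**Figure D3:**
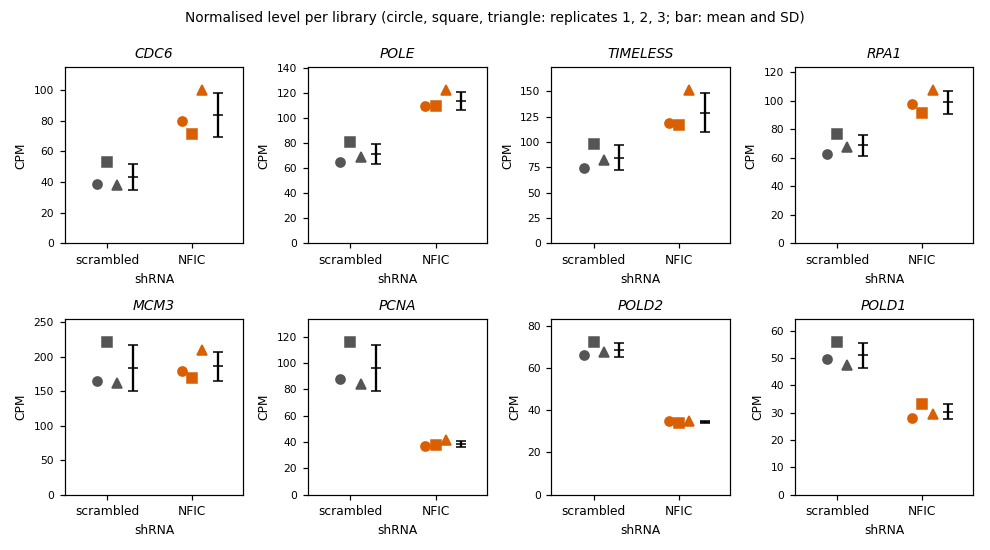
CPM of 8 replication genes in each library, with the scrambled samples in grey, the NFIC KD samples in orange, a marker shape for each replicate, the mean and SD as a black bar, and y axes that start at 0. The NFIC KD points of CDC6, POLE, TIMELESS and RPA1 all lie above the scrambled points, those of PCNA, POLD2 and POLD1 all lie below, and those of MCM3 overlap them.

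Ratios taken within a library do not depend on scaling between libraries, and they set these genes against each other. The pairs were chosen after their values were seen, so the ratios are descriptions. POLD1 had 0.764, 0.693 and 0.688 counts for each count of POLE in the scrambled libraries and 0.255, 0.304 and 0.242 in the NFIC KD libraries. POLD2 had 1.020, 0.898 and 0.983 counts for each count of POLE in the scrambled and 0.316, 0.31 and 0.284 in the NFIC KD libraries. The ratio to POLE was thus 2.68 times (POLD1) and 3.19 times (POLD2) as high in scrambled as in NFIC KD cells. These pairs leave out POLD3, which rose, and POLE2, which did not pass the test, so they do not describe the whole complexes. PCNA had 10.6, 10.8 and 10.1 counts for every 100 counts of MCM2 to MCM7 in the scrambled and 3.64, 3.89 and 3.47 in the NFIC KD libraries, a 2.85 times difference. In that ratio scrambled replicate 2, which was high for nearly all replication genes, lay within 0.364 (SD) of its group's mean of 10.5. In each of the 6 ratios examined the groups did not overlap, which the choice of pairs made likely beforehand. The exact permutation test gave p = 0.1 for each (0.1 after Benjamini-Hochberg adjustment), the smallest that 3 against 3 samples allow. Because of that choice, this p adds nothing to the description.

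**Figure D4:**
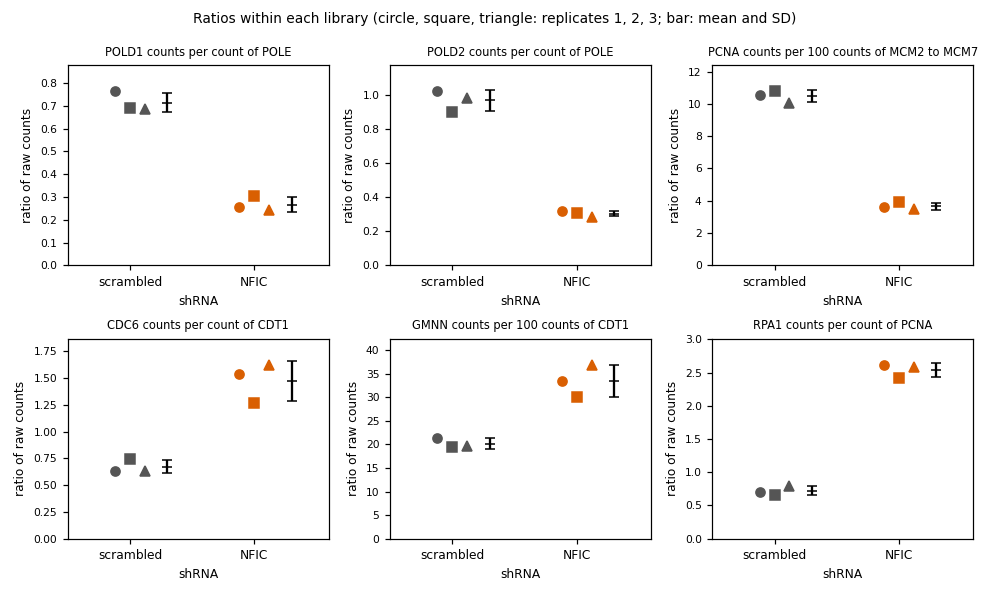
Ratios of raw counts between replication genes within each library, with the scrambled samples in grey, the NFIC KD samples in orange, a marker shape for each replicate, the mean and SD as a black bar, and y axes that start at 0. The 3 ratios in the top row are lower in every NFIC KD library (for POLD2 per POLE 0.284 to 0.316 against 0.898 to 1.020), and the 3 in the bottom row are higher in every NFIC KD library (for RPA1 per PCNA 2.42 to 2.62 against 0.66 to 0.798).

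Among the genes that license origins, the helicase loader CDC6 showed the largest rise of the 48. CDC6 was at 38.6, 53.1 and 38.2 CPM in the scrambled samples and at 80.1, 71.5 and 99.8 CPM in the NFIC KD samples. The lowest NFIC KD library stood above the highest scrambled library by more than the SD of either group (8.48 and 14.5 CPM). The log2 fold change was 0.95 (SE 0.16, edgeR adjusted p = 8.26e-04), which is 1.93 times the scrambled level, and 3.9% of all tested genes had a higher one. CDC6 lies at chr17:40287879-40304657 on the plus strand (GRCh38). CDT1, its partner in loading, was at 60.6, 71.5 and 60.2 against 52.1, 56.3 and 61.4 CPM and just missed the threshold (log2 fold change -0.18, edgeR adjusted p = 0.0505). It passed as lower without scrambled replicate 1 (-0.23) or 3 (-0.23), without NFIC KD replicate 3 (-0.24), and with both unusual libraries left out (-0.16). CDT1 was also called under upper-quartile scaling, with no filter, with at least 10 counts in every sample and with the block by title numbers. GMNN, the inhibitor of CDT1, rose from 13.0, 14.0 and 11.8 CPM to 17.5, 16.9 and 22.7 CPM (log2 fold change 0.55, SE 0.11, edgeR adjusted p = 4.40e-04). For each count of CDT1 there were 0.637, 0.742 and 0.635 counts of CDC6 in the scrambled and 1.54, 1.27 and 1.63 in the NFIC KD libraries. For every 100 counts of CDT1 there were 21.5, 19.5 and 19.6 counts of GMNN in the scrambled and 33.5, 30.0 and 36.9 in the NFIC KD libraries. Both ratios were higher in all 3 NFIC KD libraries.

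The origin recognition complex had 4 of 6 subunits higher, 1 lower and 1 not called, all by small steps. ORC2 (22.9, 27.0 and 27.2 against 28.5, 31.8 and 35.3 CPM) rose by a log2 of 0.31 (edgeR adjusted p = 0.00582). ORC3 (29.4, 33.8 and 32.3 against 39.5, 36.7 and 44.8 CPM) rose by 0.34 (edgeR adjusted p = 0.00154). For both, no scrambled library reached an NFIC KD library. ORC1, the ATP-binding subunit whose amount cycles in human cells, and ORC4 were called higher by 0.26 and 0.18 (edgeR adjusted p = 0.0465 and 0.0455), but their groups overlapped. The ORC1 call was lost without scrambled replicate 1 (0.20) or 3 (0.21) or NFIC KD replicate 3 (0.13), and the ORC4 call without scrambled replicate 1 (0.11) or 2 (0.17) or NFIC KD replicate 2 (0.17) or 3 (0.18). ORC5 fell, from 14.9, 13.4 and 15.2 CPM to 12.1, 10.3 and 12.05 CPM (log2 fold change -0.34, edgeR adjusted p = 0.00764), with no overlap. ORC6, the subunit least tightly bound to the others, did not pass (0.07, 95% interval -0.19 to 0.32).

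The MCM2-7 ring, whose 6 subunits assemble in equal numbers, was the most abundant complex of the set. It had 2 of 6 subunits called higher and 0 lower. The median log2 fold change of the ring was 0.20, beside 0.19 for the 48 genes. Its summed level was 833, 1078 and 837 CPM in the scrambled and 1024, 969 and 1192 CPM in the NFIC KD samples, and scrambled replicate 2 lay above NFIC KD replicates 1 and 2. All 6 subunits were highest in that library among the scrambled and in replicate 3 among the NFIC KD samples. MCM7 was the subunit whose groups did not overlap, at 185, 228 and 189 against 259, 234 and 269 CPM (log2 fold change 0.34, edgeR adjusted p = 0.00137). MCM7 shares 392 exon bases with AP4M1 on the opposite strand, whose count was 11.5% of its own. MCM4, at 108, 146 and 103 against 154, 143 and 192 CPM, was called higher by a log2 of 0.45 (edgeR adjusted p = 0.0329), a call lost without scrambled replicate 1 (0.38) or 3 (0.36) or NFIC KD replicate 3 (0.32). MCM2 (0.13), MCM3 (0.02), MCM5 (0.26) and MCM6 (0.08) did not pass the test, and the 95% interval of MCM3 ran from -0.27 to 0.32. Without scrambled replicate 2, MCM2 (0.26), MCM5 (0.40) and MCM6 (0.19) passed as higher, which made 5 of 6 subunits, as did leaving out both unusual libraries.

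Of the MCM relatives outside the ring, MCM8, a helicase known for its part in homologous recombination, was at 23.5, 31.6 and 20.7 against 36.3, 32.8 and 44.6 CPM (log2 fold change 0.58, edgeR adjusted p = 0.0114). The call was lost without NFIC KD replicate 3 (0.45). MCM8 also shares 2564 exon bases with an overlapping gene model on the same strand, ENSG00000286235, which held 153% as many counts, so its own count is uncertain. MCM10, which helps to activate the loaded ring, did not pass (0.07, edgeR adjusted p = 0.732), though it did without scrambled replicate 2 (0.30).

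The genes that fire origins were mixed. The kinase CDC7 (log2 fold change -0.02, 95% interval -0.22 to 0.19) and its activator DBF4 (-0.04, 95% interval -0.22 to 0.14) did not pass the test, and these intervals bound any change to about 0.22 on the log2 scale in either direction. CDC45 (0.20) did not pass either, although it did without scrambled replicate 2 (0.38). Of the 4 GINS subunits, which bind the MCM ring with CDC45, 2 rose. GINS3 was at 11.7, 12.4 and 11.1 against 16.5, 13.4 and 17.7 CPM with no overlap (log2 fold change 0.43, edgeR adjusted p = 0.00204). GINS1 was called higher (0.36, edgeR adjusted p = 0.0168) with groups that overlapped, and lost its call without scrambled replicate 1 (0.28) or 3 (0.27) or NFIC KD replicate 3 (0.29). Exons of GINS1 share 259 bases with NINL on the opposite strand, which held 92.9% as many counts. GINS2 (0.05) and GINS4 (0.24) did not pass, and GINS4 did without scrambled replicate 2 (0.34) or NFIC KD replicate 2 (0.32).

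Polymerase alpha and primase, which make the RNA-DNA primers, had none of 4 subunits called by edgeR. The catalytic subunit POLA1 was at -0.04 (95% interval -0.24 to 0.16) and POLA2 at 0.19 (95% interval -0.13 to 0.50). POLA2 shares 2012 exon bases with a same-strand gene model, ENSG00000285816, that held 89.6% as many counts, which makes its count uncertain, and it passed as higher without scrambled replicate 2 (0.34). The primase subunits PRIM1 (-0.18, edgeR adjusted p = 0.0798) and PRIM2 (-0.15, edgeR adjusted p = 0.182) did not pass either. PRIM1 shares 362 exon bases with the same-strand gene model ENSG00000285625 and 139 with NACA, which held 1049% and 2086% as many counts, so its count is uncertain too. PRIM1 was called lower without scrambled replicate 1 (-0.23) or 3 (-0.23) or NFIC KD replicate 3 (-0.24), and PRIM2 without the last of these (-0.26).

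RPA, the trimer that coats single-stranded DNA at forks, had 2 of 3 subunits higher. RPA1, the large DNA-binding subunit, was at 62.2, 76.7 and 67.2 against 97.6, 91.2 and 107 CPM (log2 fold change 0.52, SE 0.075, edgeR adjusted p = 1.87e-05). RPA2, which is phosphorylated when replication is stressed, was at 42.6, 48.03 and 47.0 against 63.6, 63.2 and 70.9 CPM (log2 fold change 0.52, SE 0.067, edgeR adjusted p = 3.29e-06). The groups of both genes lay clear of each other, and both calls held in all 16 alternatives. RPA3, the smallest subunit, did not pass (-0.02, 95% interval -0.24 to 0.20). For each count of PCNA there were 0.707, 0.66 and 0.798 counts of RPA1 in the scrambled and 2.62, 2.42 and 2.59 in the NFIC KD libraries, which is 3.52 times as many.

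Of the enzymes that join Okazaki fragments, the flap endonuclease FEN1 rose, from 40.2, 52.7 and 37.9 CPM to 59.5, 56.5 and 72.8 CPM (log2 fold change 0.53, SE 0.13, edgeR adjusted p = 0.00609). Its groups did not overlap, and its exons share 49 bases with FADS2 on the same strand, which held 124% as many counts. DNA ligase 1 (LIG1) did not pass (0.13, edgeR adjusted p = 0.229), although it did without scrambled replicate 2 (0.27). Both enzymes bind PCNA, and neither was called lower.

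Among the fork protection genes, TIMELESS, which links the helicase to the polymerases, rose the most. It was at 74.3, 97.8 and 82.0 CPM in the scrambled and 119, 117 and 151 CPM in the NFIC KD samples (log2 fold change 0.60, SE 0.12, edgeR adjusted p = 0.00192). The groups did not overlap. Its partner TIPIN did not pass (0.10, 95% interval -0.18 to 0.39), nor did the checkpoint adaptor CLSPN (0.25, 95% interval -0.13 to 0.64), which passed without scrambled replicate 2 (0.46). WDHD1, which tethers polymerase alpha to the helicase, was called higher (0.42, edgeR adjusted p = 0.0162) with groups that overlapped, and lost the call without scrambled replicate 1 (0.38) or 3 (0.32).

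**Figure D5:**
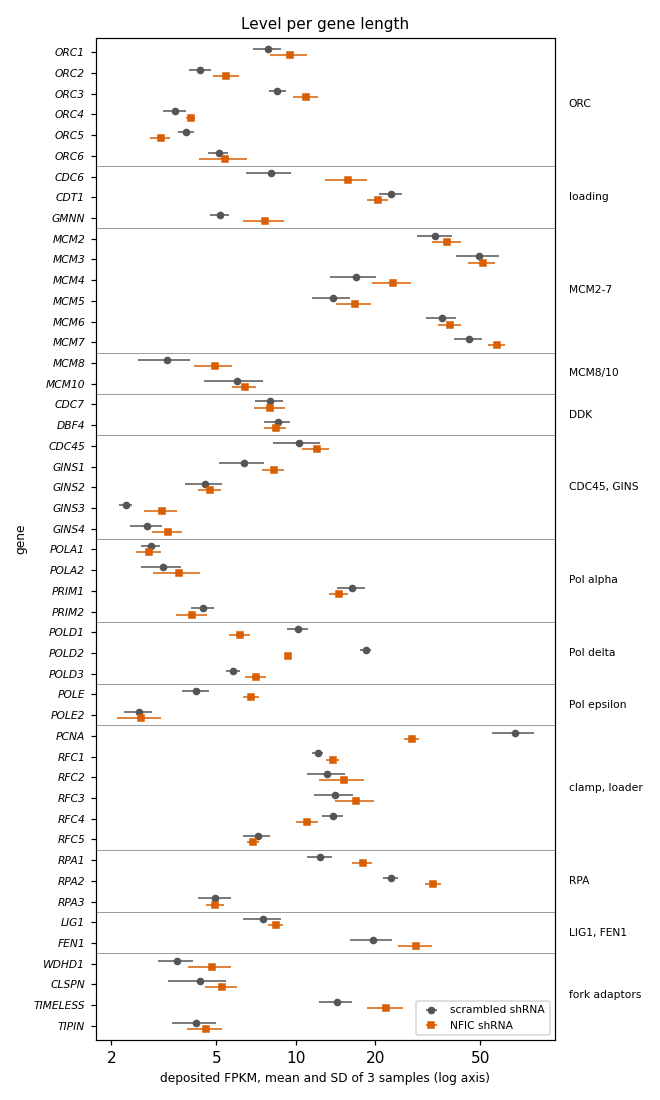
Level of each of the 48 genes per gene length, as deposited FPKM on a log axis, with the mean and SD of the 3 scrambled samples (grey circles) and of the 3 NFIC KD samples (orange squares), grouped by role. In scrambled cells levels run from 2.27 FPKM (GINS3) to 67.7 FPKM (PCNA), and the largest gap between the circles and squares is that of PCNA.

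Levels between genes were compared per gene length, in FPKM. The deposited lengths enter these values, such as 1403 bases for PCNA, 16790 for POLE, 4934 for POLD1, 6973 for MCM4 and 7268 for MCM5, so the order of levels depends on those lengths. In scrambled cells the 48 genes ran from 2.27 FPKM (GINS3) to 67.7 FPKM (PCNA), with a median of 7.92. After PCNA came MCM3 at 49.6 ± 9.04, MCM7 at 45.3 ± 5.4, MCM6 at 35.8 ± 4.53 and MCM2 at 33.8 ± 5.15 FPKM (SD, n = 3 each), neighbours that lay within about 1 SD of each other except for the step from MCM7 to MCM6. MCM4 (16.9 ± 3.31) and MCM5 (13.8 ± 2.26) were lower than the other ring subunits. POLD2 (18.4 ± 0.907) and POLD1 (10.2 ± 0.889) stood above POLE (4.20 ± 0.491) and POLE2 (2.54 ± 0.301 FPKM) in scrambled cells. In NFIC KD cells POLD1 was at 6.14 ± 0.541 and POLE at 6.78 ± 0.473 FPKM, and the per-library ranges of these catalytic subunits overlapped (5.65 to 6.72 and 6.50 to 7.33 FPKM), which they did not in scrambled cells (9.50 to 11.2 and 3.80 to 4.75 FPKM).

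The promoters of the 48 genes were examined because many of these genes are textbook E2F targets, while members rose, fell or did not pass the test. RefSeq promoter windows (GRCh38.p14, 250 bases before to 50 after the start) were at hand for 42 of the 48 genes. The E2F octamers searched were TTTCCCGC, TTTCGCGC, TTTGCCGC and TTTGGCGC, on both strands. A match lay in 22 of 42 windowed genes (52.4%), against 6.53% of 11406 tested genes with a window and 3.31% of all 35116 windows. Matches were found for 8 of 16 genes called higher, 1 of 5 called lower (PCNA) and 13 of 21 not called. The median log2 fold change was 0.16 for the genes with a match and 0.12 for those without. The CCAAT box (CCAAT) was in 25 of 42 (59.5%) against 42.6% of tested genes. The CHR element (TTTGAA), known from promoters of mitotic genes, was in 1 of 42 (DBF4) against 14% of tested genes, and in 20 of 31 genes of a fixed G2/M list with a window. The short NFI motif TTGGC was in 31 of 42 (73.8%) against 54.5% of tested genes, and 36 of its 65 matches overlapped a CCAAT box or E2F octamer. The full palindromic NFI motif, with its spacer, was in 0 of 42 windows and in 5 of the 11406 tested genes with a window. A match is a description of letters and not a bound site.

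The stretches below show the promoters of the 3 genes that fell most, of CDC6 and POLE, which rose, and of MCM6, which did not pass the test. E2F octamers and CCAAT boxes, on either strand, are in capitals. Each runs 5′ to 3′ from position -130 to 20 relative to the RefSeq start, or for MCM6 from -170 to -21, and PCNA and POLD1 have 2 windows, of which 1 is shown.
CDC6, chr17:40287749-40287898, plus strand: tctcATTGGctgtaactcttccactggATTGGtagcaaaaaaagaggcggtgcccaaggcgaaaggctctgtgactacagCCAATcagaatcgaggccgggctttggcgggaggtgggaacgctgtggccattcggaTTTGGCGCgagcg
POLE, chr12:132687323-132687472, minus strand: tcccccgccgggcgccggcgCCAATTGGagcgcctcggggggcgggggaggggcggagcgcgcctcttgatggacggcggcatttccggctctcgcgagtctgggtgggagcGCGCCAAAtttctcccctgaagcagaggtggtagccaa
MCM6, chr2:135876464-135876613, minus strand: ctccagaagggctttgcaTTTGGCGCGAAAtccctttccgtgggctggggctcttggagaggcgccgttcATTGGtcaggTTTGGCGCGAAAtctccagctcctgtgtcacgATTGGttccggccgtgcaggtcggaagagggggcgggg
PCNA, chr20:5126603-5126752, minus strand: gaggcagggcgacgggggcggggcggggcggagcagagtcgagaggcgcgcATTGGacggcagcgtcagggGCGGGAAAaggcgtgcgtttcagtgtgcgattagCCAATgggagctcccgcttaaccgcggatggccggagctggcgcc
POLD2, chr7:44123529-44123678, minus strand: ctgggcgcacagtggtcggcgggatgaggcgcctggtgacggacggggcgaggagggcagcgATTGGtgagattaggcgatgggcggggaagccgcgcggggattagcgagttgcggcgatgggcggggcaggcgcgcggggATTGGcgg
POLD1, chr19:50384193-50384342, plus strand: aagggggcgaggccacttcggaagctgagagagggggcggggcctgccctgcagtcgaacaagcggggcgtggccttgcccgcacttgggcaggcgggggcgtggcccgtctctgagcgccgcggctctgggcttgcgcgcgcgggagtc
The POLD1 stretch holds neither motif and the POLD2 stretch holds 2 CCAAT boxes and no E2F octamer. The stretches of PCNA, which fell, and of CDC6 and POLE, which rose, each hold 1 E2F octamer. Whether E2F factors had a part in these changes was not tested. MCM6 holds 4 octamer matches, as overlapping pairs on opposite strands, and was at 136, 171 and 142 against 150.0, 150.4 and 176 CPM.

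Other genes of DNA replication were counted from lists of their own. Among 42 further replication genes, which include the polymerase accessory subunits, histone chaperones and licensing ubiquitin ligases, 16 were higher and 5 lower (50% called, against 59.9% of all tested genes), with a median log2 fold change of 0.15. TRAIP, a ubiquitin ligase that triggers unloading of the helicase, rose by 0.80, the histone chaperone ASF1B by 0.78 and the cullin CUL2 by 0.57, while SKP2, a ubiquitin ligase subunit that targets CDT1, was at -0.55, the histone acetyltransferase KAT7 at -0.29 and RNASEH2C at -0.25. These 6 genes had groups that did not overlap. Among 10 genes of the replication checkpoint, 6 were higher and 2 lower (80% called, against 59.9% of all tested genes). Their median log2 fold change was 0.23. WEE1, the kinase that restrains CDK1, rose by 0.88, RAD9A by 0.50 and CDC25A by 0.47. ETAA1 was at -0.44 and ATR at -0.16, and both calls were lost without scrambled replicate 1 (-0.35 and -0.14) or NFIC KD replicate 1 (-0.29 and -0.14), that of ATR also without replicate 2 of either group (-0.17 and -0.14).

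Among 18 genes of the E2F and RB network, 7 were higher and 3 lower, with a median log2 fold change of 0.11. The share called, 55.6%, was near the 59.9% of all tested genes. LIN37 (1.06), LIN54 (0.80) and the repressor E2F7 (0.98) rose. E2F5 was at -0.74, E2F4 at -0.15 and the activator E2F1 at -0.33, at 34.7, 37.3 and 35.3 CPM in the scrambled and 27.5, 30.1 and 28.1 CPM in the NFIC KD samples, so that E2F1 was lower in all 3. The E2F4 call was lost without scrambled replicate 2 (-0.14) or 3 (-0.15) or NFIC KD replicate 1 (-0.15) or 2 (-0.12).

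Genes of G2 and mitosis, which follow replication in the cycle, were counted from a list of 38. Of these, 34 were higher and none was lower (89.5% called, against 59.9% of all tested genes). Their median log2 fold change was 0.68. NEK2, a centrosomal kinase, rose by 1.70, the kinesin KIF20A by 1.39 and securin (PTTG1) by 1.18. The summed level was 2371 to 2639 CPM in the scrambled and 3712 to 4631 CPM in the NFIC KD samples. Scrambled replicate 2 was highest of its group for 31 of the 38 and NFIC KD replicate 3 for 36 of the 38, as for the replication genes. Whether the share of cells in each phase of the cycle had a part in the replication results was not tested.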

How the data were processed

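mRNA of 6 THP-1 samples, 3 for each group, was sequenced as read pairs. Per the labels and the study's methods, the authors trimmed reads (Trim Galore, FastQC), mapped them to GRCh38 with STAR and counted them over Ensembl genes with featureCounts (versions and the strand setting are not given in the sources used here). The deposited table holds raw counts, size-factor scaled counts (a signal), which were not tested, and FPKM values. The deposited comparison columns (log2 fold change, p-value and score) were not used. Counts were tested with edgeR 4.0.16 (R 4.3.3), with TMM scaling, the filterByExpr filter and a robust quasi-likelihood fit over 19182 genes, Benjamini-Hochberg adjusted, called under 0.05. CPM values use TMM-scaled totals. Intervals are 95% intervals of that fit. FPKM values are as deposited, scaled by the authors to 1 total shared by all samples, and positions and exon overlaps come from GENCODE (GRCh38). Overlaps were sought only among genes of the count table. The fit was also run on simulated counts in which 200 genes were changed, whereas 59.9% of tested genes were called here. That run therefore does not show how the scaling behaves where so many genes change. Samples with the same replicate number in the descriptions did not deviate together and were not paired. Alternatives were DESeq2 1.42.0, other scalings and filters, an adjusted p of 0.01, a replicate block and each library left out. The genes and lists were chosen with earlier results of these data known. Genes named were all 48, NFIC and, from each other list, up to 3 called genes in each direction with the largest change at a mean of at least 1 CPM, plus polymerase subunits that complete a complex.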

Additional observations from a re-analysis of the deposited data

How the results depend on the processing

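The direction of each of the 24 called genes was kept in all 16 alternatives run, and the median log2 fold change of the 48 genes stayed between 0.10 and 0.30 with 1 library left out and between 0.13 and 0.20 in the others. NFIC was called lower throughout. Leaving out 1 library gave 20 to 34 called replication genes, 13 to 29 of them higher and 5 to 8 lower, and 10443 to 11300 called over all genes. An adjusted p of 0.01 left 17 called, 12 of them higher, which is 35.4% against 48.5% of all genes. DESeq2 called 22 (17 higher, 5 lower), 45.8% against 41.8% of the larger set of genes it tested, and the fit with no filter 30, 62.5% against 34.7%. These 2 fits covered 24099 and 33981 genes in place of 19182, so their shares of all genes take in genes with low counts. They are not comparable with the 59.9% of the main fit. Blocking on the replicate number gave 23 calls (18 higher, 5 lower), 47.9% against 57.3% of all genes, and the median stayed at 0.18. Blocking on the title numbers gave 35, 72.9% against 63.1%, with 4 in place of 2 MCM ring subunits higher. The correlation of deviations between same-numbered samples was 0.0563, -0.0862 and -0.0446, so these numbers do not pair the samples. By title it was 0.0563 for C1 with N1, 0.145 for C3 with N3, the libraries that stood apart, and 0.0267 for C4 with N2, which share no number and are the pair left over, so that 1 of 3 passed 0.1 and these were not taken as pairs either. Genes that did not pass the test changed sign as follows. Under upper-quartile scaling the log2 fold change of MCM3 was -0.0340, of GINS2 -0.00931 and of POLE2 -0.0471. CDC7 was at 0.00197 with total counts and 0.00138 with DESeq2, and POLE2 at -0.00355 with at least 10 counts in every sample. With scrambled replicate 2 and NFIC KD replicate 3 both left out, ORC6 was at -0.0505, POLE2 at -0.0600 and RPA3 at 0.0690. With 1 library left out, the ranges were -0.10 to 0.16 for ORC6, -0.0689 to 0.18 for MCM3, -0.0413 to 0.30 for MCM10, -0.12 to 0.0777 for CDC7, -0.11 to 0.0490 for DBF4, -0.0533 to 0.18 for GINS2, -0.12 to 0.0253 for POLA1, -0.15 to 0.10 for POLE2, -0.14 to 0.0216 for RFC5, -0.12 to 0.0931 for RPA3 and -0.0142 to 0.26 for TIPIN. The cause was not tested.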
